A study of Mus musculus with 12 samples.

Results

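The 10 transcripts described here belong to insulin and glucagon signalling in the liver or to its outputs, and were chosen by name. They are the insulin receptor (Insr), its docking proteins (Irs1, Irs2), the kinases that relay its signal (Akt1, Akt2), the transcription factors those kinases restrain (Foxo1, Foxo3), 2 secreted binding proteins of insulin-like growth factors (Igfbp1, Igfbp2) and the glucagon receptor (Gcgr). All 10 were among the 46882 gene names of the count table, and all 10 had enough counts to be among the 13706 genes tested. The livers came from C57BL/6 mice 6 to 8 weeks old, 6 wild-type (WT) and 6 A1cf -/- (KO), and each library is called here by its genotype and the number in its label. A1cf encodes an RNA-binding protein first known as a partner of the APOBEC1 enzyme, which edits the apolipoprotein B messenger RNA. The question that the design puts to these genes is whether their messenger RNA levels differ between livers with and without A1cf. Which exons the allele lacks, whether all tissues lack them, and when the mice last ate are not given in the sources used here.

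Insulin binds its receptor on hepatocytes, and the activated receptor phosphorylates Irs1 and Irs2. These recruit a lipid kinase that leads to activation of Akt1 and Akt2. Akt phosphorylates Foxo1 and Foxo3, which 14-3-3 proteins then hold outside the nucleus, and so genes that FOXO factors switch on in the fasted liver, such as Igfbp1, fall silent after a meal. Glucagon acts in the opposite sense through Gcgr, a receptor that raises cyclic AMP and activates protein kinase A. Most of this control acts on proteins, which messenger RNA levels do not show.

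The sequences below are shown because they hold the letters through which FOXO factors are known to act on this pathway. Promoters were taken from RefSeq (build GRCm38.p6) as the 250 bases before and 50 bases after each annotated transcript start. They covered 9 of the 10 genes in 14 windows. Insr had no entry. Each window was searched on both strands for CAAAACA, the core of the insulin response sequence, for GTAAACA, a FOXO consensus, and for TGACGTCA, the cyclic AMP response element, with its shorter form TGACG, which lies inside it. The CAAAACA core was found in 3 of the 14 windows, those of Irs1, Irs2 and Igfbp1, and in 6.28% of all 32851 promoters of the same length. Sequences run 5′ to 3′ on the strand of the gene, with the match in capitals, so that TGTTTTG is the core read from the opposite strand. Positions are counted from the transcript start, with -1 the last base before it.
Igfbp1 (chr11:7197659-7197705, plus strand, bases -128 to -82): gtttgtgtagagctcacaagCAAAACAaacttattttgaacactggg
Irs2 (chr8:11008940-11008986, minus strand, bases -57 to -11): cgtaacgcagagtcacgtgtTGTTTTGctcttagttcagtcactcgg
Irs1 (chr1:82291445-82291570, minus strand, bases -131 to -6): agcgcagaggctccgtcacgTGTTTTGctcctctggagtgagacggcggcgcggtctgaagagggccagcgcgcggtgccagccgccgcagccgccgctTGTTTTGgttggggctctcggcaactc
The Igfbp1 match begins at -108, and the stretch around it is a textbook insulin response sequence. The Irs2 match begins at -37, and Irs1 has matches at -111 and -32. GTAAACA was found in 1 window, at -161 of an Akt1 start, against 3.65% of all promoters. TGACGTCA was in none of the 14 windows, against 1.79% of all promoters, and TGACG was in 4 windows, of Irs1, Foxo3 and Akt2, against 20.8%. A match is a description of letters and no evidence of binding, and a window without one says only that these letters are not in it.

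Library totals ran from 22129092 to 51082317 assigned fragments. A1cf itself was at 47.9, 50.8 and 53.8 CPM (counts per 1000000 fragments; lowest, median and highest) in WT and at 8.20, 10.5 and 12.6 CPM in KO, with every KO library below every WT library. Across all genes 523 of 13706 passed an adjusted p of 0.05 in edgeR's quasi-likelihood test (3.82%), 236 higher in KO (1.72%) and 287 lower (2.09%). With library totals as the only scaling, 266 were higher and 139 lower. The 8 hepatocyte markers summed to 92165 to 114594 CPM in WT and 88417 to 104972 CPM in KO. The 12 Kupffer cell and macrophage markers summed to 159 to 250 CPM in WT and 162 to 550 CPM in KO. All 12 lay above 0 in log2 fold change, with 0 past the threshold in edgeR. In the same test 11 had an unadjusted p under 0.05, as did 21.2% of all tested genes. DESeq2 called 3 of the markers (Cd5l, Clec4f and Csf1r) and limma-voom 0. Stellate cell and fibroblast markers summed to 146 to 270 CPM in WT and 241 to 341 CPM in KO, with 2 of 11 past the threshold (Pdgfrb and Lrat, both higher in KO). Sinusoidal endothelial markers summed to 141 to 275 CPM in WT and 208 to 272 CPM in KO, with 1 of 10 past the threshold (Stab2, higher), a call lost with the number range as a covariate. The 6 cholangiocyte markers summed to at most 121 CPM in every library but KO 602, at 515 CPM, of which Spp1 alone made up 505 CPM. Of the 8 pancreatic transcripts, 7 had no count in any library, among them Ins1, Ins2 and Gcg, which allows up to 0.059 to 0.131 CPM each. The 16 acute phase transcripts summed to 22018 to 98814 CPM in WT 590, WT 601, KO 588, KO 591 and KO 602, and to 12596 to 17787 CPM in the other 7 libraries.

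None of the 10 genes passed the threshold in edgeR's quasi-likelihood test, where 3.82% of all tested genes did. At an unadjusted p under 0.05 there was 1, Insr, against 21.2% of all tested genes, and the same gene alone passed the adjusted threshold in DESeq2 and in limma-voom. Of the 10 genes, 5 were higher and 5 lower in KO, with a median log2 fold change of 0.05 against 0.01 over all tested genes. The median size of the change, regardless of sign, was 0.16 for these genes and 0.16 for all tested genes. Insr was also the only one whose 6 KO libraries all lay on one side of the 6 WT libraries, which 3.3% of all tested genes showed. A p that misses the threshold does not show equal levels, and the 95% intervals of the fold changes differ greatly in width. They were narrowest for Akt2, from -0.14 to 0.13 on the log2 scale, and widest for Igfbp1, from -1.47 to 1.38. In these bulk livers, fewer cells of a type and less RNA per cell cannot be told apart.

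**Figure D1:**
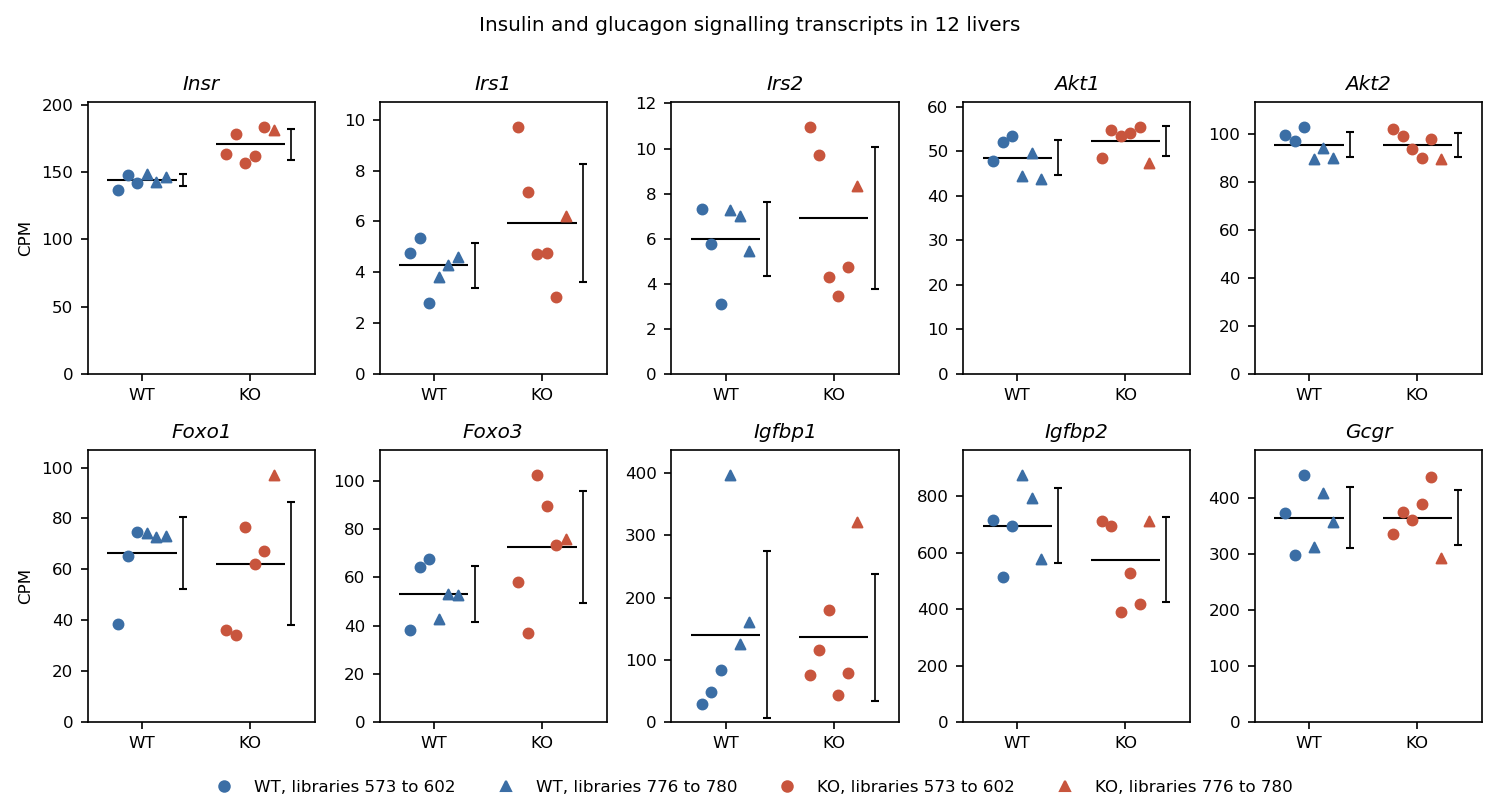
Level of each of the 10 transcripts in every library, in CPM on a linear axis from 0, for WT (blue) and KO (red). Circles are libraries numbered 573 to 602 and triangles those numbered 776 to 780, horizontal lines are means and bars 1 SD over 6 libraries. Insr alone has all KO libraries above all WT libraries, and Igfbp1 ranges from 28.6 to 397 CPM within WT.

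**Figure D2:**
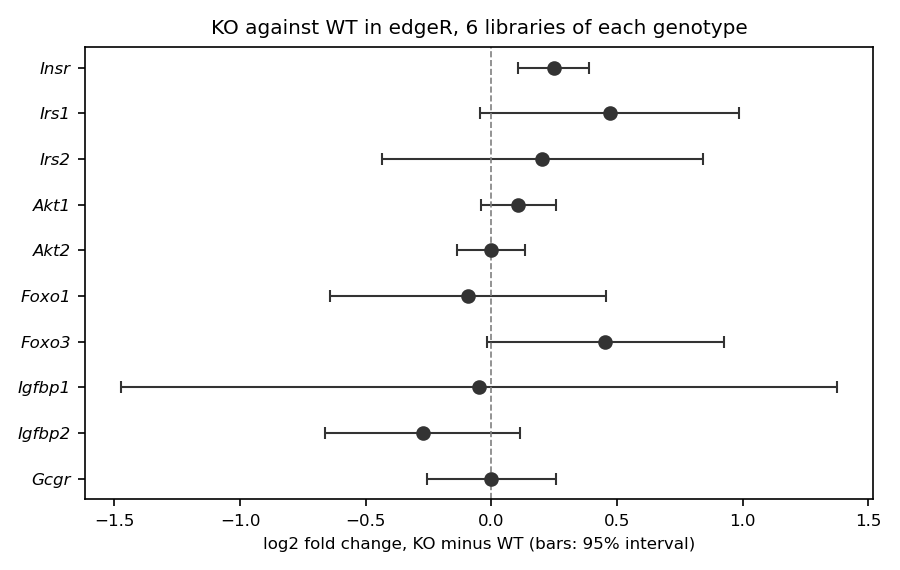
The log2 fold change (KO minus WT) of each transcript in edgeR, with its 95% interval over 6 libraries of each genotype. The interval of Insr alone lies wholly above 0, from 0.10 to 0.39, and that of Igfbp1 is the widest.

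The insulin receptor was the member that came nearest to a call. Insr (chr8:3150922-3279617 in mm10, minus strand) is the cell-surface kinase that starts the cascade. It was at 136, 145 and 148 CPM in WT (lowest, median, highest) and at 157, 171 and 184 CPM in KO. The highest WT library lay below the lowest KO library. Means were 144 ± 4.58 CPM in WT and 171 ± 11.5 CPM in KO (SD, n = 6 each), a difference of 18.7%. The log2 fold change was 0.25 ± 0.07 (SE) with an adjusted p of 0.0538 in edgeR's quasi-likelihood test, just outside the threshold. An exact two-sided permutation test over every division of the 12 libraries into 6 and 6 gave p = 0.002165, the smallest that this design can give. That p is unadjusted and is fixed once the groups do not overlap, so it only restates their separation.

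WT livers were unusually alike in this transcript, with a coefficient of variation (SD over mean) of 3.18%, against 6.74% in KO. The difference was of similar size in both ranges of library numbers. Among libraries 573 to 602 the mean was 142 CPM in 3 WT and 169 CPM in 5 KO libraries, and among libraries 776 to 780 it was 146 CPM in 3 WT libraries beside 181 CPM in the single KO library. The call itself moved with the setting, passing in 6 of 22 alternatives. Its adjusted p was 0.0379 with the number range as a covariate, 8.3e-04 in DESeq2 and 0.0461 in limma-voom, but 0.178 with no low-count filter, 0.264 among libraries 573 to 602 alone and between 0.0583 and 0.121 when any 1 library was left out. The summed Kupffer cell markers lay above every WT library in 4 of 6 KO livers. KO 602 was highest both for them, at 550 CPM, and for Insr, at 184 CPM, while KO 584, at 162 CPM of them and within the WT range, held 178 CPM of Insr. Stellate cell markers lay above every WT library in 4 of 6 KO livers too. The part of either cell type in the Insr difference was not tested. The 3 named genes whose log2 CPM most resembled that of Insr over the 12 libraries were Zfp597, Casp4 and Slc6a8, with Pearson r of 0.92, 0.91 and 0.90 among 11111 genes compared. All 3 had themselves risen in KO, and after each genotype's mean was taken out r was 0.68, 0.70 and 0.69.

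The receptor's docking proteins were the scarcest of the transcripts and varied from liver to liver more than between genotypes. Irs1 (chr1:82233101-82291416, minus strand) was at 2.79, 4.45 and 5.35 CPM in WT and at 3.01, 5.50 and 9.72 CPM in KO. Of the 6 KO libraries 3 lay above every WT library, and the others lay within the WT range. KO exceeded WT by 0.47 ± 0.24 in log2 fold change, with an adjusted p of 0.279 in edgeR's quasi-likelihood test (exact permutation p = 0.169, 2-sided). Irs2 (chr8:10986980-11008458, minus strand), the docking protein whose transcript insulin lowers in liver, was at 3.08, 6.38 and 7.31 CPM in WT and at 3.45, 6.54 and 10.96 CPM in KO. Its groups overlapped as well, with 3 KO libraries above and 3 below the WT median. Its log2 fold change was 0.20 ± 0.30, with an adjusted p of 0.741 in edgeR's quasi-likelihood test.

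Both docking proteins stood highest in the same 3 livers. KO 574, KO 584 and KO 780 had 9.72, 7.15 and 6.22 CPM of Irs1. The same libraries had 10.96, 9.72 and 8.33 CPM of Irs2. Both transcripts were lowest in WT 601, at 2.79 and 3.08 CPM. These 3 KO livers had low sums of acute phase transcripts, from 14293 to 17787 CPM. In the 5 livers named above for a high sum, Irs2 ran from 3.08 to 5.75 CPM, and in the other 7 from 5.44 to 10.96 CPM. The part of the acute phase response in these values was not tested. The genes most like Irs2 over the 12 libraries were Hnrnpa1, Sun1 and Atp6v0c, each with a Pearson r of 0.94. Counting limits Irs1 in 1 further way: 30.9% of its exonic bases lie under Gm9747, an unnamed gene model on the opposite strand, and the counting command set no option to assign fragments that lie over 2 genes.

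**Figure D3:**
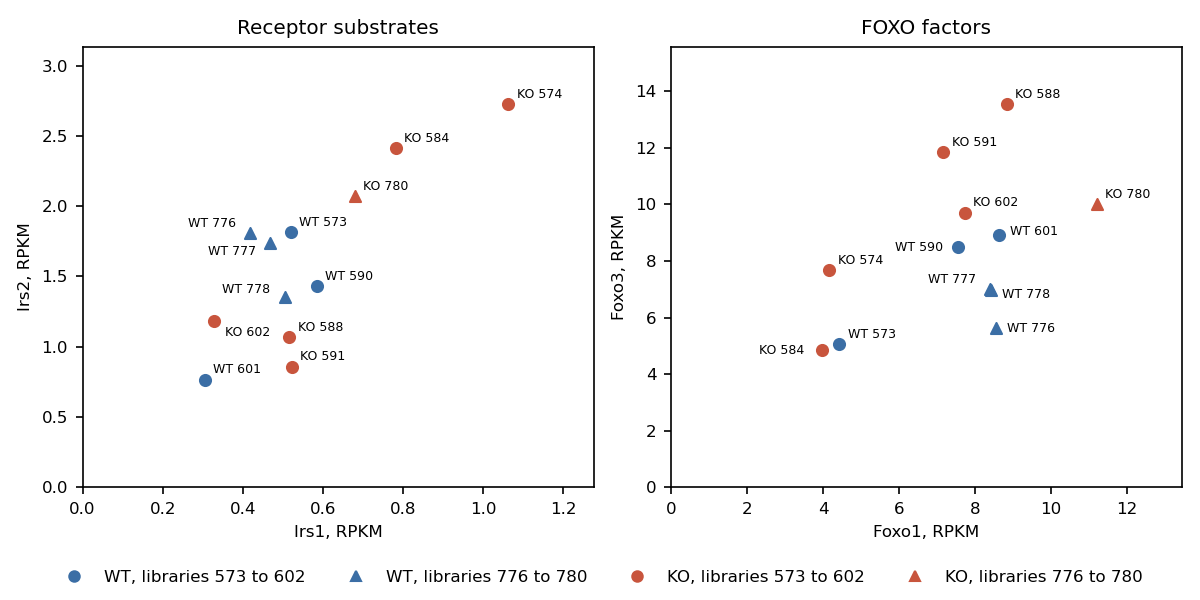
Irs2 against Irs1 (left) and Foxo3 against Foxo1 (right) in each of the 12 libraries, in RPKM (CPM per kilobase of exon), on linear axes from 0. The libraries KO 574, KO 584 and KO 780 lie highest for both docking proteins, and KO 584, WT 573 and KO 574 lie lowest for Foxo1.

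The kinases that relay the signal varied little from liver to liver. Akt2 (chr7:27591552-27640826, plus strand), the isoform that carries most of insulin's metabolic effects, was at 89.6, 95.6 and 103 CPM in WT and at 89.4, 95.8 and 102 CPM in KO. The groups covered nearly the same range. Its log2 fold change of -0.00 ± 0.06 had an adjusted p of 0.987 in edgeR's quasi-likelihood test. Its sign changed with the scaling. Akt1 (chr12:112653821-112674884, minus strand), the isoform more tied to growth, was at 43.8, 48.6 and 53.5 CPM in WT and at 47.5, 53.8 and 55.5 CPM in KO, with 3 KO libraries above every WT library. Its log2 fold change was 0.11 ± 0.07, with an adjusted p of 0.404 in edgeR's quasi-likelihood test. Per length of transcript, WT livers held 13.4 ± 0.74 RPKM of Akt2 and 11.8 ± 0.96 RPKM of Akt1 (SD, n = 6), and Akt2 was the higher in all 6 WT and in 5 of 6 KO libraries.

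Foxo1 and Foxo3, the forkhead factors at the end of the cascade, were high or low in partly the same livers. KO 780 and KO 588 were high for both, at 97.1 and 76.6 CPM of Foxo1 and 75.8 and 103 CPM of Foxo3. WT 573 and KO 584, low for Foxo1, were also the lowest for Foxo3, at 38.3 and 36.7 CPM. Others differed, such as WT 776 at 74.1 CPM of Foxo1 and 42.7 CPM of Foxo3. Foxo1 (chr3:52268336-52353221, plus strand), the main FOXO of fasting glucose production, was at 38.3, 72.9 and 74.8 CPM in WT and at 34.3, 64.6 and 97.1 CPM in KO. Of the 12 libraries 9 held between 62.1 and 97.1 CPM, and WT 573, KO 574 and KO 584 stood apart at 38.3, 36.1 and 34.3 CPM. Low livers thus occurred in both genotypes. These livers, all numbered 573 to 602, had low acute phase sums, from 15713 to 17787 CPM. In the livers named above for a high sum, all of the same number range, Foxo1 ran from 62.1 to 76.6 CPM. Libraries 776 to 780 had low sums too and held 72.7 to 97.1 CPM of Foxo1. The part of the acute phase response in the Foxo1 values was not tested. The log2 fold change was -0.09 ± 0.25, with an adjusted p of 0.872 in edgeR's quasi-likelihood test, and it turned to 0.05 with the number range as a covariate.

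Foxo3 (chr10:42181841-42276755, minus strand), a relative with many of the same binding sites, was at 38.3, 52.9 and 67.6 CPM in WT and at 36.7, 74.6 and 103 CPM in KO. Of the 6 KO libraries 4 lay above every WT library, while KO 584 lay below them all. In the fit KO exceeded WT by 0.45 ± 0.22 in log2 fold change, with an adjusted p of 0.255 in edgeR's quasi-likelihood test (exact permutation p = 0.134, 2-sided). It kept its sign in all 22 alternatives run, from 0.25 to 0.59, and passed the threshold in none of them. In the 5 livers with high acute phase sums Foxo3 ran from 64.3 to 103 CPM. In the other 7 it ran from 36.7 to 75.8 CPM. The part of the acute phase response in the Foxo3 values was not tested.

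Set against each other within a liver and per length of transcript, Foxo1 stood lower relative to Foxo3 in most KO livers. The ratio of Foxo1 to Foxo3 had a median of 1.08 in WT, from 0.87 to 1.52, and of 0.72 in KO, from 0.54 to 1.12. Foxo1 was the higher in 3 of 6 WT libraries and in 1 of 6 KO libraries, and these 4 are the libraries numbered 776 to 780, so that the ratio also differed between the number ranges, which the genotypes fill unevenly. The difference in the log2 ratio was -0.57, with an exact 2-sided permutation p of 0.0217, and 0.0866 after Benjamini-Hochberg adjustment over the 4 ratios computed in this gene set. Within the libraries 573 to 602 the 3 WT libraries had ratios from 0.87 to 0.97 and the 5 KO libraries from 0.54 to 0.82, a difference of -0.43 on the log2 scale with an exact 2-sided permutation p of 0.0357, where 0.0179 is the smallest possible. Within 776 to 780 the ratio reached 1.52 among 3 WT libraries and was 1.12, below all of them, in the single KO library, a difference of -0.22. These ratios were chosen after the levels were seen, and none of the 4 passed the adjusted threshold over all 12 libraries. Only this ratio, the one with the smallest p of the 4, was split by number range. The permutation p within 573 to 602 is unadjusted and comes from the same values, so it gives no separate support. The ratio of Irs2 to Irs1 had medians of 3.08 in WT and 2.80 in KO, that of Akt2 to Akt1 1.13 and 1.03, and that of Igfbp1 to Igfbp2 0.17 and 0.22. The lengths count all exonic bases, though 30.9% in Irs1, 4.03% in Irs2 and 7.78% in Foxo1 lie under gene models on the opposite strand. Fragments there may be uncounted, and the part of this in the ratios was not tested.

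Igfbp1 (chr11:7197782-7202546, plus strand) is a secreted carrier of insulin-like growth factors and the classic hepatic gene that FOXO1 drives and insulin shuts off. It was at 28.6, 105 and 397 CPM in WT and at 43.4, 97.2 and 322 CPM in KO, a span of 13.9-fold among WT livers alone. The groups lay over each other. Means were 141 ± 135 CPM in WT and 136 ± 102 CPM in KO (SD, n = 6 each). The log2 fold change was -0.05 ± 0.65, with an adjusted p of 0.978 in edgeR's quasi-likelihood test. The coefficient of variation was 95.8% in WT, above that of 99.5% of the 1350 tested genes whose WT mean lay within 2-fold of it, and 75.4% in KO, so livers of the same genotype differed in this transcript as few others did.

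In WT that spread followed the library numbers. WT 573, WT 590 and WT 601 held 28.6, 48.2 and 83.9 CPM of Igfbp1, and WT 776, WT 777 and WT 778 held 397, 125 and 160 CPM, with no overlap. KO 780, the single KO library of the higher range, held 322 CPM, against 43.4 to 180 CPM in the other 5. The highest of those 5, KO 588, lay above WT 777 and WT 778, so over both genotypes the number ranges overlapped. Within the range 573 to 602 the difference in mean log2 CPM was 0.86, KO above WT, and within 776 to 780 it was 0.69 with 1 KO library. The fitted log2 fold change moved to 0.78 with the number range as a covariate (an adjusted p of 0.333 by edgeR's quasi-likelihood test), to 0.60 without WT 776 and to -0.51 without KO 780. The labels do not say what the numbers mark or when the mice were fed and sampled, and these cannot be told apart here.

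Other fasting transcripts were extreme in the same 2 livers. The transcripts set beside Igfbp1 here, other than by list, were chosen after their values were seen. WT 776 and KO 780 were highest for Pdk4, a kinase that spares glucose in fasting, with 24.6 and 25.3 CPM against at most 15.3 CPM elsewhere. They were highest for Tat, a tyrosine-degrading enzyme raised by glucocorticoids and cyclic AMP, with 4463 and 5437 CPM against at most 3147 CPM. For Ppargc1a, the coactivator of fasting gluconeogenesis, they held 19.0 and 18.6 CPM against at most 15.6 CPM. They were lowest for Srebf1, which insulin raises to promote fat synthesis, with 29.5 and 21.4 CPM against at least 31.3 CPM. They were lowest as well for Dbp, an output gene of the circadian clock, with 38.03 and 57.4 CPM against at least 62.7 CPM. Not every such gene followed. G6pc, the last enzyme of glucose production, was highest in WT 777 at 759 CPM, and Pck1, an earlier enzyme of the same path, ran only from 4123 to 6129 CPM over all 12 libraries. The genes most like Igfbp1 by log2 CPM over the 12 libraries were Chd7, Xpo4 and Eml1, with Pearson r of 0.89, 0.89 and 0.88.

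**Figure D4:**
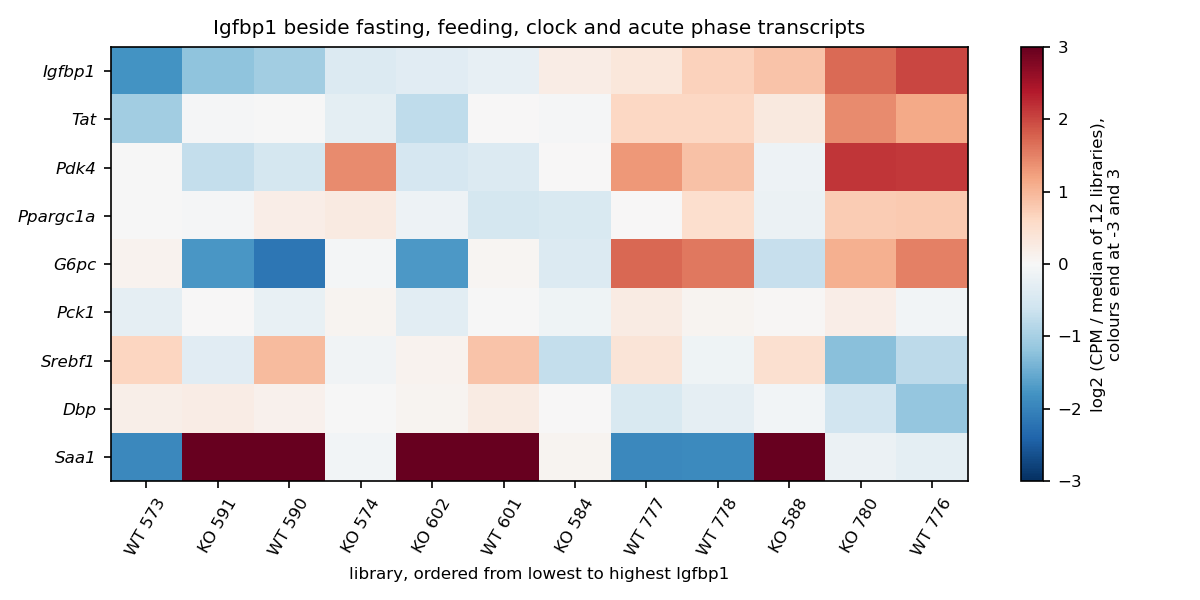
Colours give log2 of CPM over the median of the 12 libraries, from blue (lower) to red (higher), with colours ending at -3 and 3. Libraries run from lowest to highest Igfbp1, and WT 776 and KO 780 at the right edge are the highest for Igfbp1, Tat, Pdk4 and Ppargc1a and the lowest for Srebf1 and Dbp, while Saa1, an acute phase transcript, is high in 5 other libraries.

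Igfbp2 (chr1:72824503-72852474, plus strand), the other binding protein, was the most abundant transcript of the set. It was at 515, 705 and 876 CPM in WT and at 390, 611 and 714 CPM in KO. The groups overlapped, with 2 KO libraries, KO 588 and KO 602, below every WT library. Both are among the livers named above for a high acute phase sum, in which Igfbp2 ran from 390 to 693 CPM. In the other livers it ran from 579 to 876 CPM. The part of the acute phase response in the Igfbp2 values was not tested. A log2 fold change of -0.27 ± 0.18 came with an adjusted p of 0.412 in edgeR's quasi-likelihood test (exact permutation p = 0.169, 2-sided), and it stayed below 0 in all 22 alternatives run. Of 15 other genes of the insulin-like growth factor family, 10 were tested and all 10 had log2 fold changes above 0, with a median of 0.28 against 0.01 over all tested genes. None passed the threshold in edgeR, DESeq2 or limma-voom. In edgeR 1 had an unadjusted p under 0.05, as did 21.2% of all tested genes. That one was Igfbp7, a binding protein also made by vessel and stellate cells, with means of 34.5 ± 7.19 CPM for WT and 44.3 ± 4.63 CPM for KO (SD, n = 6 each). Igf1, the growth factor that liver supplies to the blood, averaged 475 ± 53.9 CPM over WT and 559 ± 71.6 CPM over KO livers (SD, n = 6 each), with a log2 fold change of 0.23 ± 0.11 and an adjusted p of 0.237 in edgeR's quasi-likelihood test.

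The glucagon receptor did not differ detectably. Gcgr (chr11:120530699-120538986, plus strand) was at 298, 366 and 442 CPM in WT and at 293, 369 and 439 CPM in KO. Highest and lowest livers were found in either genotype, WT 601 and KO 602 at the top, and WT 590 and KO 780 at the bottom. The log2 fold change was -0.00 ± 0.12, with a 95% interval from -0.26 to 0.26 and an adjusted p of 1.00 in edgeR's quasi-likelihood test. Its sign changed with the scaling and with the library left out. The genes most like Gcgr over the 12 libraries were Pcsk4, Ccdc101 and Tmem259, with Pearson r of 0.92, 0.91 and 0.89.

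Downstream of the glucagon receptor, 33 of 37 listed genes of the path to protein kinase A and CREB were tested, 22 higher and 11 lower in KO, with a median log2 fold change of 0.13. None passed the threshold in edgeR. In the same test 5 had an unadjusted p under 0.05, as did 21.2% of all tested genes. DESeq2, which called 1175 genes over the whole table, called 1 (Pde4d), and limma-voom called 0. With the number range as a covariate 1 passed, Itpr1, higher in KO. Pde4d, an enzyme that breaks down cyclic AMP, was at 2.42, 2.82 and 3.28 CPM in WT and at 3.32, 3.90 and 5.13 CPM in KO. Its groups did not overlap, and its log2 fold change of 0.50 ± 0.14 had an adjusted p of 0.0538 in edgeR's quasi-likelihood test. Adcy7, an adenylyl cyclase found mostly in blood cells and macrophages, averaged 2.62 ± 0.65 CPM over WT and 3.84 ± 0.97 CPM over KO livers (SD, n = 6 each), in libraries whose Kupffer cell markers were mostly higher as well. The part of those cells in its value was not tested.

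Few of the other genes of insulin signalling passed the test. Of 49 listed genes from the receptor to AKT and mTOR, 44 were tested, 19 higher and 25 lower in KO, with a median log2 fold change of -0.03. In edgeR's quasi-likelihood test 0 rose and 2 fell, which is 4.55% of the 44 against 3.82% of all tested genes. DESeq2 called 1 higher, Pik3cd, and the same 2 lower. The 2 that fell were Ceacam1, which helps the liver take up and clear insulin from the blood, and Ide, an enzyme that degrades insulin.

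Ceacam1 was at 106, 131 and 140 CPM in WT and at 73.3, 84.5 and 106 CPM in KO. WT 601, the lowest of its group, lay level with KO 780, the highest KO library, and 5 of 6 KO libraries lay below every WT library. Its log2 fold change was -0.57 ± 0.11, with an adjusted p of 0.0097 in edgeR's quasi-likelihood test. Ide was at 109, 125 and 151 CPM in WT and at 64.8, 68.7 and 107 CPM in KO. All 6 KO libraries lay below all 6 WT libraries, though KO 780 came within a few CPM of the lowest. For Ide the log2 fold change was -0.69 ± 0.13, with an adjusted p of 0.0124 in edgeR's quasi-likelihood test. Both kept their call whichever single library was left out, and within the libraries 573 to 602, where the fit holds 3 WT and 5 KO, their log2 fold changes were -0.55 and -0.77 with adjusted p of 0.101 and 0.0697. Ide also missed the threshold without the 2 deepest libraries, at 0.0667. Ide lies on the same chromosome as A1cf, chromosome 19, at a distance of 5.32 Mb. Ppp1r3c, a listed gene for a glycogen-targeting subunit, lies 4.78 Mb from A1cf and had a log2 fold change of -0.01. Whether a linked stretch of chromosome differs between the genotypes was not tested.

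**Figure D5:**
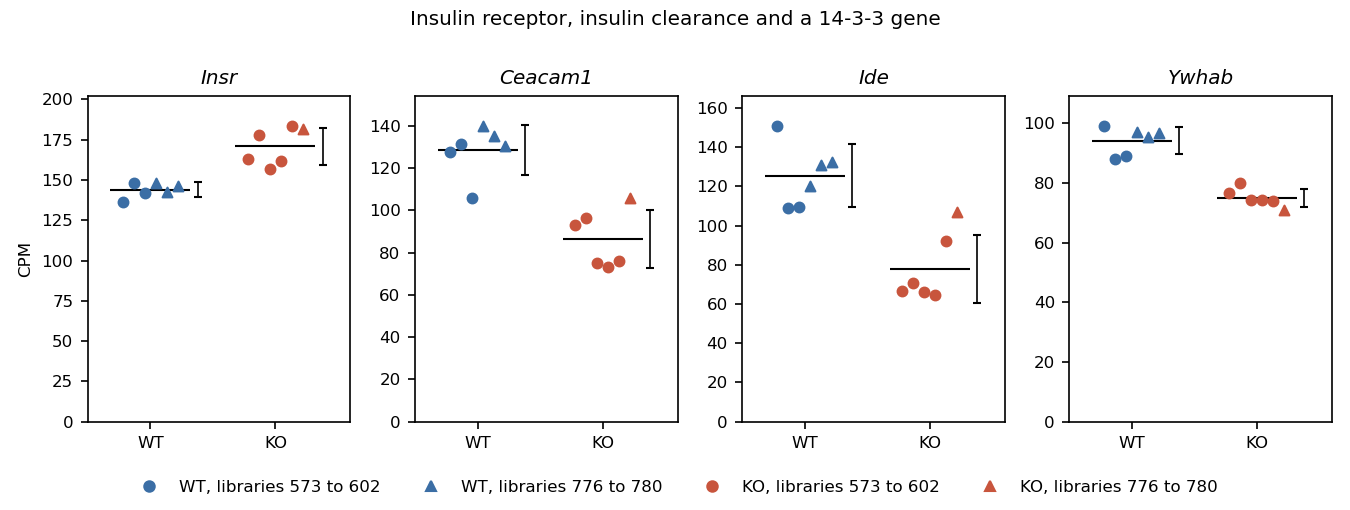
Levels in CPM, on linear axes from 0, of Insr, the insulin clearance genes Ceacam1 and Ide, and the 14-3-3 gene Ywhab in every library, with means (lines) and 1 SD over 6 libraries (bars). Circles are libraries numbered 573 to 602 and triangles those numbered 776 to 780. KO libraries lie above WT for Insr and below WT for Ide and Ywhab, and for Ceacam1 only KO 780 reaches the lowest WT library.

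Of 21 listed further FOXO genes and regulators of FOXO proteins, 20 were tested, 11 higher and 9 lower, with a median log2 fold change of 0.03. In edgeR's quasi-likelihood test 0 rose and 1 fell, 5% of the 20 against 3.82% of all tested genes. DESeq2 called 0 higher and 2 lower (Ywhab and Ywhae), and with the number range as a covariate Ep300 was called higher beside Ywhab lower. Ywhab, a 14-3-3 protein of the family that holds phosphorylated FOXO in the cytoplasm, was at 87.9, 95.9 and 99.1 CPM in WT and at 70.9, 74.3 and 79.8 CPM in KO. The groups did not overlap. Its log2 fold change was -0.33 ± 0.06, with an adjusted p of 0.0078 in edgeR's quasi-likelihood test, a fall of 20.4% that kept its call whichever library was left out. It missed the threshold with library totals as the only scaling, at an adjusted p of 0.0618, without the 2 deepest libraries, at 0.0519, and among libraries 573 to 602 alone, at 0.180.

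Few of the genes that these pathways are known to control passed the test. Of 39 transcripts listed here as raised by FOXO1 or fasting in liver, 36 were tested, 11 higher and 25 lower in KO. Their median log2 fold change was -0.10 against 0.01 over all tested genes. In edgeR 0 rose and 1 fell, 2.78% of the 36 against 3.82% of all tested genes, and DESeq2 and limma-voom gave the same counts. Sod2, a mitochondrial enzyme that removes superoxide, fell by 0.32 on the log2 scale, with an adjusted p of 0.0446 in edgeR's quasi-likelihood test, a call kept in 1 of 12 fits that left out a library. Of 22 transcripts listed here as raised by insulin or feeding, 21 were tested, 10 higher and 11 lower. Of these 0 rose and 1 fell, also by DESeq2 and limma-voom, which is 4.76% of the 21 against 3.82% of all tested genes. Me1, which supplies reducing power for fat synthesis, fell by 0.62 on the log2 scale, with an adjusted p of 0.0431 in edgeR's quasi-likelihood test, kept in 2 of those 12 fits. With the number range as a covariate, neither Sod2 nor Me1 passed, at 0.0556 and 0.0675, while 2 other genes of the insulin or feeding list did, Acacb higher and Srebf1 lower in KO.

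Of 27 listed transcripts reported to be raised by glucagon or cyclic AMP in liver, 26 were tested, 13 higher and 13 lower, with a median log2 fold change of -0.00. None passed in edgeR's quasi-likelihood test, and 4 had an unadjusted p under 0.05 in it, as did 21.2% of all tested genes. DESeq2, with 1175 calls over the whole table, called 3 (Pde4d, Slc38a4 and Nr4a1), and limma-voom called 0. With the number range as a covariate 1 passed, Gpt2, higher in KO. Nr4a1, an immediate early transcription factor that cyclic AMP induces, was at 2.46, 3.02 and 6.12 CPM in WT and at 2.84, 7.65 and 13.4 CPM in KO. Of the 6 KO libraries 4 lay above every WT library. Its log2 fold change of 1.04 ± 0.35 had an adjusted p of 0.116 in edgeR's quasi-likelihood test.

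Per length of transcript the secreted binding proteins and the glucagon receptor stood highest and the docking proteins lowest. Lengths count all exonic bases, among them the 30.9% of Irs1 that lie under Gm9747. In WT the mean levels were 377 RPKM for Igfbp2, 140 for Gcgr, 92.2 for Igfbp1, 14.9 for Insr, 13.4 for Akt2, 11.8 for Akt1, 7.66 for Foxo1, 7.02 for Foxo3, 1.49 for Irs2 and 0.47 for Irs1 (n = 6). Neighbours in that order whose ranges over libraries overlapped were Gcgr with Igfbp1, Insr with Akt2, Akt2 with Akt1, and Foxo1 with Foxo3. The hormone receptors were thus far apart, with Gcgr several times as high as Insr in every liver. In KO the order was the same except that Foxo3, at 9.60 RPKM, stood above Foxo1, at 7.18 RPKM, with overlapping ranges, and that ranges no longer overlapped for Insr with Akt2 but did for Akt1 with Foxo3 and for Irs2 with Irs1.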

How the data were processed

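RNA from frozen livers of 6 WT and 6 KO mice was extracted with a miRNeasy kit and made into TruSeq libraries, per the labels' protocols. The authors deposited 1 table of raw fragment counts for each gene name, counted with featureCounts 1.5.0-p2 over GENCODE M8 exons and no strand option, per the file headers. STAR, DESeq2 and the mm10 build appear without versions in the submitters' processing notes. The exonic length in the deposited table, another value per gene, was used for RPKM only.

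These counts were fitted with edgeR 4.0.16 (R 4.3.3): genes kept by filterByExpr (minimum count 10), TMM scaling, robust quasi-likelihood test with genotype as the only term, Benjamini-Hochberg adjustment over 13706 genes, threshold 0.05. CPM and RPKM use TMM-scaled library sizes, and log2 CPM a prior count of 2. The standard error is the log2 fold change over the square root of F. DESeq2 1.42.0, limma-voom (limma 3.58.1), other scalings and filters, the number range (573 to 602 or 776 to 780) as a covariate, subsets of libraries and each library left out were alternatives. Floors are 3 counts and cover counting error only.

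Of each list the text names up to 4 called genes by smallest p, and of a list without calls at most 2, as values. For 4 of the 10 genes it names the 3 named genes with the highest Pearson correlation of log2 CPM among those of at least 1 CPM. The genes and lists were chosen with earlier results of these data known. The design text calls the 6 mice of a group biological replicates.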

Additional observations from a re-analysis of the deposited data

Results flagged for a closer look

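In 2 of the 22 groups of 6 libraries examined for a single distant value, 1 library stood apart by Dixon's 95% limit. Gaps were measured in CPM and not in log2 CPM. Chance passes the limit in about 1 group in 20 only where values are roughly normal. In WT, Foxo1 was at 38.3 CPM in WT 573, with the nearest WT library at 65.4 CPM, a gap of 0.74 of the group's range. KO 574 and KO 584 held similar levels, 36.1 and 34.3 CPM. Igfbp1 was at 397 CPM in WT 776, with the nearest WT library at 160 CPM, a gap of 0.64 of the range, and KO 780 held 322 CPM. In log2 CPM, WT 776 was at 8.63, the nearest WT library at 7.33 and the lowest at 4.84, a smaller part of the range.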

How the results depend on the processing

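The number of the 10 genes past the threshold, 0 as reported, became 1 (Insr) with library totals as the only scaling, with a mean of at least 1 CPM as the filter, in DESeq2, in limma-voom, with the number range as a covariate and with the acute phase level as a covariate (an alternative chosen after seeing the data), and ranged from 0 to 0 when any 1 library was left out. Genes called over the whole table went from 523 to 1175 in DESeq2, 57 among libraries 573 to 602 only, 206 without the 2 deepest libraries and 943 with the acute phase covariate, and ranged from 266 (without WT 777) to 638 (without WT 590). The count lay between 266 and 324 without WT 573, WT 777, WT 778, KO 574, KO 588 or KO 591. Fewer libraries enter the fits of a subset and those that leave 1 out, and the cause of the other moves was not tested.

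Signs close to 0 turned. The log2 fold change of Akt2 was 0.045 with library totals, 0.0085 with the filter on mean CPM and 0.015 without the 2 deepest libraries, and from -0.024 to 0.019 with a library left out. That of Gcgr was 0.045, 0.012 and 0.0098 under the same 3 settings, 0.0028 in limma-voom and 0.039 among libraries 573 to 602, and from -0.057 to 0.060 with a library left out. Foxo1 gave 0.047 with the number range as a covariate, and from -0.26 to 0.030 with a library left out. Igfbp1 gave 0.11 in limma-voom, 0.78 with the number range, 0.89 among libraries 573 to 602 and 0.13 with the acute phase covariate, and from -0.51 to 0.60 with a library left out. Insr, Irs1, Irs2, Akt1, Foxo3 and Igfbp2 kept their sign in all 22 alternatives. Of the called genes, Ceacam1 passed in 21 of 22 alternatives, Ide in 20, Ywhab in 19, Me1 in 8 and Sod2 in 6.

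No paired analysis was run because the labels name no pairs of libraries, and the 2 groups share no library number. Irs1 and Irs2 rest on 68 to 310 fragments per library, the fewest of the 10 genes.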
